A study of Mus musculus with 7 samples.

Results

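The genes described here are NRF2 (*Nfe2l2*), its sensor *Keap1* and the enzymes, carrier proteins and transporters of antioxidant defence. They were chosen by function, as a list of 45 gene symbols covering haem and iron handling, quinone reduction, glutathione supply, thioredoxins, peroxiredoxins, glutathione peroxidases, superoxide dismutases and catalase, glutaredoxins and glutathione transferases. Of the 45 genes, 44 have a row in the deposited table of 22877 genes. The expression of *Srxn1*, which encodes sulfiredoxin, was not analysed here, and its promoter was searched with the others.

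Oocytes were taken from secondary follicles of 8-week-old C57BL/6J mice and their RNA was sequenced, to ask how oocyte gene expression differs when the mitochondrial outer membrane fusion protein MFN1 is absent. *Mfn1*-/- mice were *Mfn1* fl/fl and carried *Zp3-Cre*, in which the promoter of a zona pellucida gene drives Cre in growing oocytes, so the other cells of the ovary keep *Mfn1*, and WT littermates were the controls. Follicles were released from ovaries with collagenase and oocytes were separated from granulosa cells with Accutase. The paper reports that follicles of *Mfn1*-/- mice stop growing within the secondary stage, with few of the many-layered type. Genotype and follicle stage therefore cannot be told apart in these libraries. Each library held the poly(A) RNA of 5 pooled oocytes, with 4 WT and 3 *Mfn1*-/- libraries by the sample labels, while the design text gives 3 for each genotype, and whether libraries came from separate mice is not stated.

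For each gene the table holds 1 mean of normalized counts per genotype. Where a pair of values follows a gene, the first is that of *Mfn1*-/- oocytes. Every level is the authors' mean for that genotype, with no spread between libraries, no standard error and no test, and a difference between genotypes is a description of these 7 libraries. The deposited total was matched within 1% by 3 *Mfn1*-/- means and 4 WT means in 100% of the rows, so all 7 libraries enter the means. The log2 fold change is the log2 ratio of the *Mfn1*-/- mean to the WT mean after adding 0.1 to each, which understates the difference of low genes. Its median was 0.16 over the 6226 genes whose mean across the libraries was at least 1. This overall shift is the level against which a difference should be read. *Mfn1* itself had a mean of 0.0577 in *Mfn1*-/- oocytes against 0.616 in WT, a log2 fold change of -2.18.

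NRF2 is a transcription factor that KEAP1 holds in the cytoplasm and delivers to the proteasome. When oxidants or electrophiles modify KEAP1, NRF2 builds up, enters the nucleus and binds antioxidant response elements of genes for glutathione synthesis, thioredoxin, quinone reduction, haem breakdown and iron storage. Control is therefore largely at the protein level, and the level of *Nfe2l2* mRNA need not follow the activity of the protein. Peroxiredoxins and glutathione peroxidases remove peroxides, thioredoxin and glutathione return these enzymes to the reduced state, and ferritin stores the iron that would otherwise turn peroxide into radicals. The growing oocyte depends on its own mitochondria for energy and holds glutathione for use after fertilization.

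Most of the antioxidant genes differed little between *Mfn1*-/- and WT oocytes, and a few differed by far more. *Hmox1*, *Ftl1*, *Gstp1* and *Gpx3* were more than 2-fold higher in *Mfn1*-/- oocytes, which is 4 of the 44 genes or 9.09%, beside 4.87% of all genes of the table. None of the 44 was more than 2-fold lower, beside 2.75% of all genes. In all, 33 of the 44 had the higher mean in *Mfn1*-/- oocytes, 10 in WT oocytes, and *Prdx5* had the same mean in both. Of all 22877 genes, 12973 had the higher mean in *Mfn1*-/- oocytes, as had 4069 of the 6226 with means of at least 1. The median log2 fold change of the 44 was 0.18, against 0.037 for all genes and 0.16 for genes with means of at least 1. Of the 44 genes, 23 lay above the overall shift and 21 below, where 8399 of all 22877 genes lay above it. At means of at least 1, 13 of the 25 antioxidant genes lay above it, beside 3113 of 6226 genes, since the shift is their median. Among the 25 antioxidant genes with means of at least 1, 3 were more than 2-fold higher, or 12%, where 5.44% of genes at that level were higher and 3.24% lower. The genes nearest to the 2-fold line on its inner side were *Keap1* and *Gpx1*, both higher in *Mfn1*-/- oocytes, and *Nfe2l2*, which was lower.

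**Figure D1:**
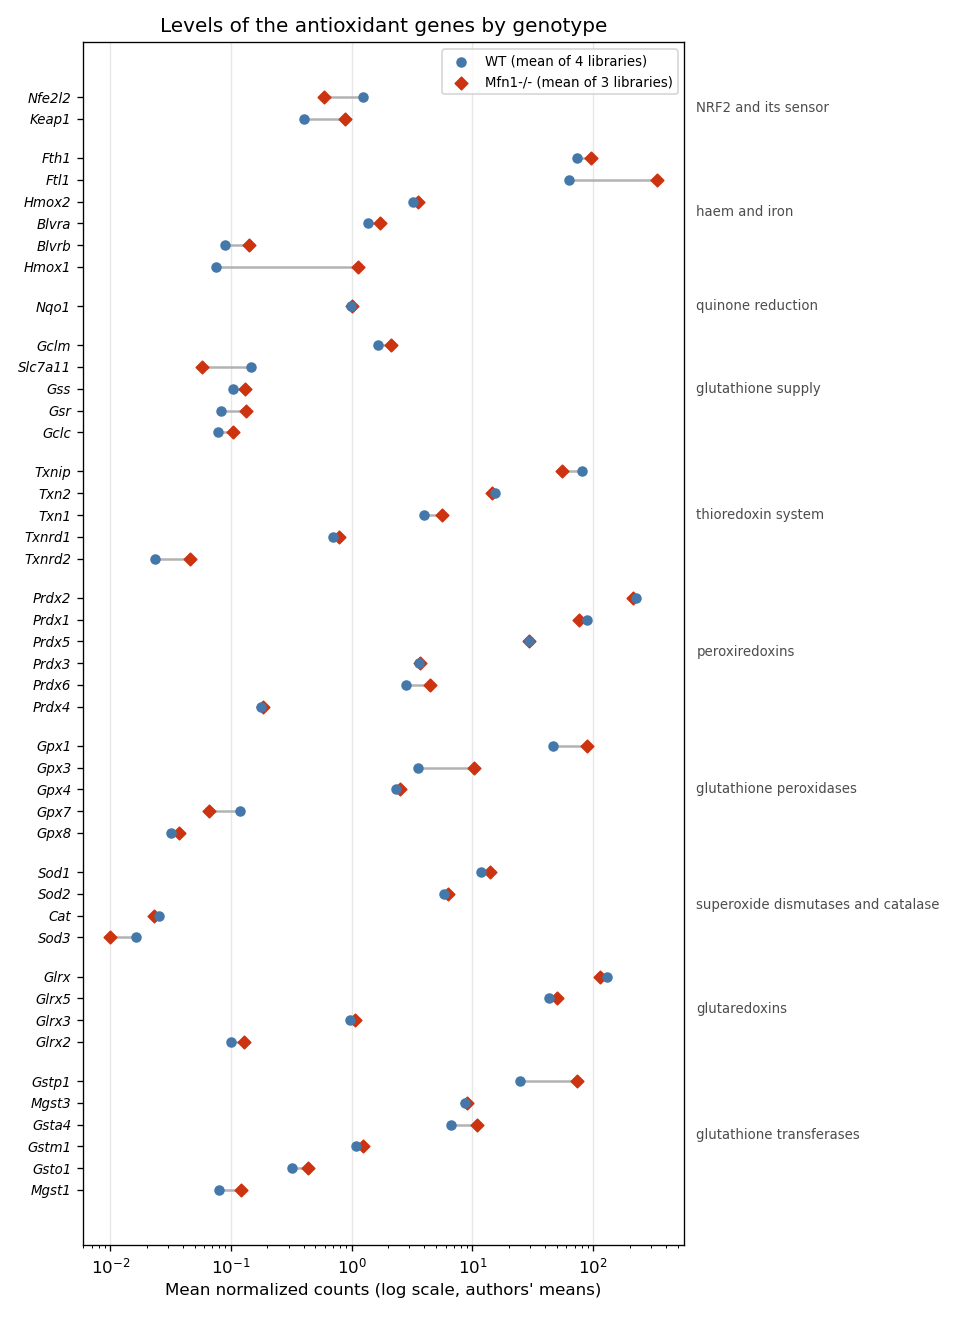
Mean normalized counts (horizontal log scale, authors' means) of the 44 antioxidant genes in WT oocytes (circles, 4 libraries) and *Mfn1*-/- oocytes (diamonds, 3 libraries), grouped by role. Most pairs of points lie close together, while *Hmox1* (0.0749 to 1.13), *Ftl1* (62.5 to 338), *Gstp1* (24.7 to 74) and *Gpx3* (3.54 to 10.2) are drawn apart.

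The levels ran from 0.01 (*Sod3*) to 338 (*Ftl1*) in *Mfn1*-/- oocytes and from 0.0163 to 226 (*Prdx2*) in WT oocytes. The deposited values behave as levels per transcript length: the smallest steps above the table's lowest value of 0.01 shrank from 0.0075 in genes with a median transcript length of 503 bases to 0.0009 at 7003 bases in WT oocytes, so levels of different genes were compared as deposited. In WT oocytes the 5 most abundant antioxidant genes were *Prdx2* (226), *Glrx* (130), *Prdx1* (88.2), *Txnip* (80.8) and *Fth1* (73.3), and they held 67.8% of the group's summed level. In *Mfn1*-/- oocytes the order was *Ftl1* (338), *Prdx2* (215), *Glrx* (113), *Fth1* (95.4) and *Gpx1* (89.5), with 69.1%. Neighbours in these orders cannot be separated, since no spread is known. *Ftl1* moved from the sixth place to the first, and *Hmox1* from 40 to 25 of 44. At the other end, 6 genes in *Mfn1*-/- and 10 in WT oocytes had means under 0.1, among them catalase (*Cat*) at 0.023 and 0.0253.

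Summed over the 44 genes the level was 1232 in *Mfn1*-/- oocytes against 882 in WT, a ratio of 1.40. This was 0.864% of the summed level of all genes in *Mfn1*-/- oocytes against 0.678% in WT. *Ftl1* alone held 27.4% of the antioxidant sum in *Mfn1*-/- oocytes against 7.08% in WT, and without it the sums were 894 and 820, a ratio of 1.09. The sums over all genes, 142576 and 130160, stand in a ratio of 1.10.

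**Figure D2:**
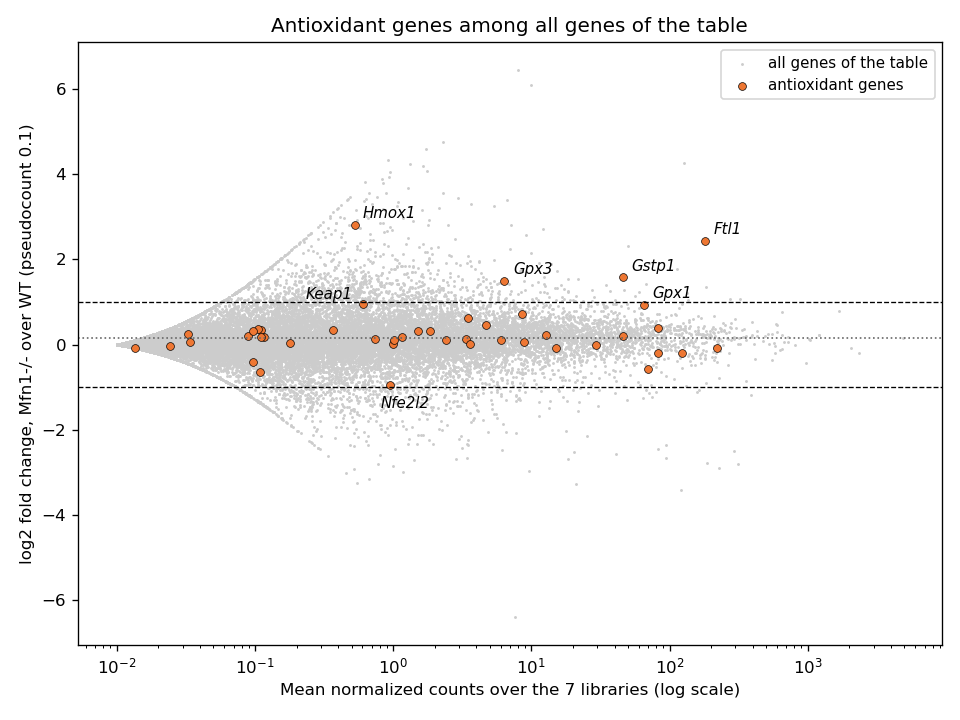
Log2 fold change (*Mfn1*-/- over WT, pseudocount 0.1) against the mean over the 7 libraries (log scale) for the 22877 genes of the table (grey) and the 44 antioxidant genes (orange). Dashed lines mark 2-fold and the dotted line the overall shift of 0.16: *Hmox1*, *Ftl1*, *Gstp1* and *Gpx3* lie above the upper dashed line and no antioxidant gene below the lower one.

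The regulator and its sensor lay in opposite directions. *Nfe2l2* (chromosome 2, 75675513 to 75704641, minus strand, GRCm38) had a mean of 0.59 in *Mfn1*-/- oocytes against 1.23 in WT, a log2 fold change of -0.95. *Keap1* (chromosome 9, 21229730 to 21239361, minus strand) had means of 0.873 and 0.4, a log2 fold change of 0.96. In WT oocytes *Keap1* mRNA was thus at 0.325 times the level of *Nfe2l2* mRNA, and in *Mfn1*-/- oocytes at 1.48 times. Of all genes, 3.13% had a log2 fold change below that of *Nfe2l2* and 5.26% one above that of *Keap1*. After subtraction of the overall shift *Nfe2l2* stood at -1.11, past 2-fold, and *Keap1* at 0.80. With a pseudocount of 0.01 both were past 2-fold, at -1.05 and 1.11, and with a pseudocount of 1 they stood at -0.49 and 0.42. With the shift subtracted, 3.58% of all genes were more than 2-fold higher and 4% more than 2-fold lower. *Nfe2l2* overlaps *Gm24996* on its own strand and *Keap1* overlaps *Gm16754* on the opposite one, and the strand setting of the counting is not stated in the sources used here.

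Other genes that set the level or activity of NRF2 were followed as a list of 10. They cover the ubiquitin ligase that destroys NRF2, its small MAF partners, the repressor *Bach1* and the related factor *Nfe2l1*. Their median log2 fold change was 0.11. Of the 10, 1 was more than 2-fold higher and none lower, beside 4.87% and 2.75% of all genes. That gene was *Sqstm1*, which encodes the autophagy receptor p62 that binds KEAP1, with means of 3.1 in *Mfn1*-/- oocytes against 1.24 in WT and a log2 fold change of 1.26. *Cul3*, the scaffold of the ligase that KEAP1 serves, had means of 0.374 and 0.407, and *Mafg*, a DNA-binding partner of NRF2, 1.48 and 1.01.

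Promoters of the antioxidant genes were searched for the core of the antioxidant response element, TGACNNNGC, because NRF2 binds this element. The windows ran from 250 bases before to 50 bases after each gene's start in RefSeq (GRCm38.p6), and both strands were read. Of the 45 genes, 39 have a window, and 8 of these, or 20.5%, hold the motif, against 14.0% of 27025 genes. Some genes have several windows. Counted by window, 8 of the 54 windows of the antioxidant genes hold the motif, against 12.4% of all 32851 windows. The 8 genes are *Nfe2l2*, *Blvra*, *Srxn1*, *Gclm*, *Prdx1*, *Mgst1*, *Txnrd1* and *Sod1*. The 5 matches that lie outside annotated exons are shown 5′ to 3′ on the strand of the gene, with the motif in capitals. Each of these matches is on the opposite strand, so the capitals read its reverse complement.
*Blvra* (chr2:127070592-127070632, plus strand, -65 to -25 from the start): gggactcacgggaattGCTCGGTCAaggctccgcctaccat
*Gclm* (chr3:122245407-122245447, plus strand, -150 to -110): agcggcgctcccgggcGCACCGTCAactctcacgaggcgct
*Prdx1* (chr4:116685450-116685490, plus strand, -149 to -109): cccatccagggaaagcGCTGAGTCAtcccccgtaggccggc
*Txnrd1* (chr10:82859098-82859138, plus strand, -108 to -68): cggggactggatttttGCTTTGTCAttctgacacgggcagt
*Sod1* (chr16:90220690-90220730, plus strand, -72 to -32): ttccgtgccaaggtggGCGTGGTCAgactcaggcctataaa

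Of the 7 genes that hold this motif and have a row, 5 had the higher mean in *Mfn1*-/- oocytes, 2 in WT oocytes and 0 were past 2-fold, with log2 fold changes from -0.95 for *Nfe2l2* to 0.32 for *Gclm*. Of the 4 genes more than 2-fold higher, *Ftl1*, *Gstp1* and *Gpx3* have a window, and 0 of these 3 hold the motif in it. Known response elements of several NRF2 targets lie further upstream than these windows reach. When the genes were divided instead by textbook knowledge, with earlier results of these data known, 15 genes with a row are classical NRF2 targets. Their median log2 fold change was 0.35, and 13 of the 15 were higher by their means in *Mfn1*-/- oocytes. Read against the overall shift, 11 of the 15 lay above it and 4 below, where 8399 of all 22877 genes lay above it. More than 2-fold higher were 3 of the 15 (*Hmox1*, *Ftl1* and *Gstp1*) or 20%, beside 4.87% of all genes. Among the other 29 genes the median was 0.11 and 1 gene, *Gpx3*, was more than 2-fold higher, or 3.45%. Of these 29, 12 lay above the overall shift and 17 below. The part of NRF2 in these differences was not tested.

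The haem and iron genes held the widest differences, and the means of all 6 were higher in *Mfn1*-/- oocytes. Of the 6, 5 lay above the overall shift and 1 below. *Hmox1* encodes the inducible haem oxygenase, which opens the haem ring and releases iron, carbon monoxide and biliverdin. It lies on chromosome 8 from 75093621 to 75100589 on the plus strand and overlaps no other annotated gene. Its mean was 1.13 in *Mfn1*-/- oocytes against 0.0749 in WT, 7.03-fold with the pseudocount, and 57 genes of the table had a larger log2 fold change than its 2.81. The WT mean is low but above the bottom of the scale, since the 5th percentile of WT means among 2624 genes of like transcript length was 0.014. With a pseudocount of 1 the log2 fold change of *Hmox1* was 0.99, short of 2-fold. The constitutive haem oxygenase *Hmox2* had means of 3.51 and 3.22, a log2 fold change of 0.12. *Hmox2* mRNA thus stood at 43.0 times *Hmox1* mRNA in WT and at 3.11 times in *Mfn1*-/- oocytes. The biliverdin reductases, which turn the product of haem oxygenase into bilirubin, had means of 1.71 and 1.36 for *Blvra* and of 0.14 and 0.0887 for *Blvrb*.

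Ferritin is a shell of heavy and light chains around stored iron. The light chain gene *Ftl1* (chromosome 7, 45457944 to 45459884, minus strand) had a mean of 338 in *Mfn1*-/- oocytes against 62.5 in WT, 5.40-fold with the pseudocount, and 89 genes had a larger log2 fold change than its 2.43. The heavy chain gene *Fth1* had means of 95.4 and 73.3, a log2 fold change of 0.38. The light chain mRNA was at 0.853 times the heavy chain mRNA in WT oocytes and at 3.54 times in *Mfn1*-/- oocytes.

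*Ftl1* has copies elsewhere in the genome that are nearly its equal in sequence, so reads of one may be counted for another. The stretch of 75 bases, the length of a read, in which the coding sequence of *Ftl1* and its most abundant copy *Ftl1-ps1* differ most is shown from base 430 to 504 of the coding sequence of *Ftl1*, with the positions that differ in capitals.
*Ftl1* (chromosome 7, minus strand): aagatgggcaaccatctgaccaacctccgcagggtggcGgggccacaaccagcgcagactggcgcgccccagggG
*Ftl1-ps1* (chromosome 13, plus strand): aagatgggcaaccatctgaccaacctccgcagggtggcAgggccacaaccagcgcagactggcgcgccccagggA

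These are the only 2 differences in the 549 bases of the coding sequence. *Ftl1-ps1* had a mean of 91.7 in *Mfn1*-/- oocytes against 18.2 in WT, a log2 fold change of 2.33. The other 4 coding copies of *Ftl1* in the table had log2 fold changes from 1.60 (*Ftl2-ps*) to 3.57 (*Ftl1-ps2*), so all 5 copies were higher in *Mfn1*-/- oocytes, as *Ftl1* was, with reads that may be shared. Added together, *Ftl1* and its copies had 439 in *Mfn1*-/- oocytes against 82.7 in WT, a log2 fold change of 2.41, and *Ftl1* held 76.9% and 75.6% of the sums. *Ftl1* also overlaps *Gm22133* on its own strand and *Gm10252* on the opposite one.

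Around these members, 17 further genes of haem synthesis, haem and iron transport and iron sensing were followed. Of the 17, 0 were past 2-fold in either direction, and their log2 fold changes ran from -0.74 for *Cpox*, a late enzyme of haem synthesis, to 0.84 for *Tfrc*, the transferrin receptor that brings iron into the cell. *Tfrc* had means of 0.523 in *Mfn1*-/- oocytes against 0.248 in WT. *Ncoa4*, which delivers ferritin to lysosomes, had means of 4.24 and 4.66, and the iron regulatory genes *Aco1* and *Ireb2* had 0.459 and 0.518, and 0.587 and 0.79.

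Markers of other cells were read beside these values because macrophages express haem oxygenase and ferritin and red cells carry haem. Of 9 macrophage and leukocyte markers 5 have a row. *Cd68*, a lysosomal membrane protein gene that is not restricted to macrophages, had a mean of 7.58 in *Mfn1*-/- oocytes against 0.672 in WT, a log2 fold change of 3.31. The other 4 (*Csf1r*, *Lyz2*, *Cd163* and *C1qa*) were under 0.1 in both genotypes and summed to 0.0901 and 0.123, and *Lyz2* was at the lowest value of the table in *Mfn1*-/- oocytes. The 1 erythroid marker with a row, *Hba-a2*, had means of 0.0285 and 0.0793. Of 12 granulosa cell markers with a row 7 were under 0.1 in both genotypes. These 12 summed to 2.71 and 1.92, and to 0.836 and 0.962 without *Inha*, whose means were 1.87 and 0.954. The 7 endothelial and theca markers with a row stood in a ratio of 0.905 by their sums. The 13 oocyte markers summed to 4090 and 3674, a ratio of 1.11, and 1 of them, *Sohlh1*, was more than 2-fold higher in *Mfn1*-/- oocytes, at 3.68 against 0.105. Apart from *Cd68* and *Inha*, no marker of another cell type had a mean above the 0.391 of *Hsd3b1* in *Mfn1*-/- oocytes, and the part of any such cells in the differences was not tested. In pooled cells, fewer cells of one type and less RNA per cell cannot be told apart.

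**Figure D3:**
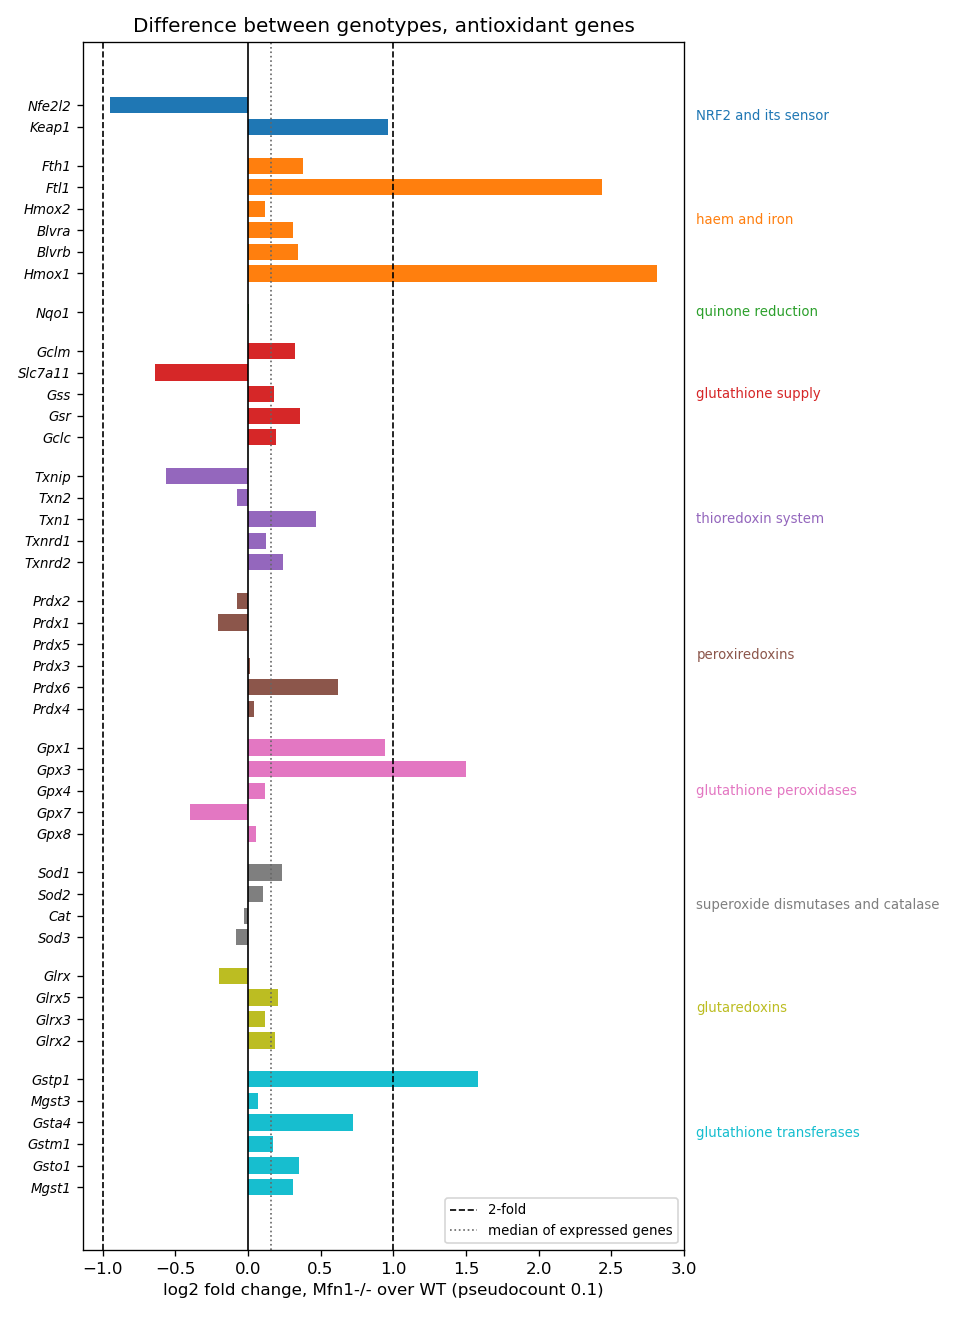
Log2 fold change (horizontal axis, *Mfn1*-/- over WT, pseudocount 0.1) of each antioxidant gene, grouped and coloured by role; dashed lines mark 2-fold and the dotted line the overall shift of 0.16. All bars of the haem and iron genes and of the glutathione transferases point to higher levels in *Mfn1*-/- oocytes, while those of the peroxiredoxins and glutaredoxins lie on both sides of 0; *Sod3* is drawn from a mean at the lowest value of the table.

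*Nqo1*, which reduces quinones and is among the most used markers of NRF2 activity, was nearly equal in the genotypes, with 0.996 in *Mfn1*-/- oocytes against 0.992 in WT.

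The genes that supply glutathione differed little at the pseudocount of 0.1, which is close to the levels of *Gclc*, *Gss*, *Gsr* and *Slc7a11*. With 0.01 added instead, the log2 fold changes were 0.64 for *Gsr*, 0.37 for *Gclc*, 0.31 for *Gss* and -1.20 for *Slc7a11*. *Gclc* and *Gclm* encode the catalytic and modifier subunits of glutamate-cysteine ligase, the rate-limiting step of glutathione synthesis. *Gclm* had means of 2.1 in *Mfn1*-/- oocytes against 1.66 in WT and *Gclc* of 0.103 and 0.0775, and their ratio was 20.4 in *Mfn1*-/- oocytes against 21.4 in WT. A stretch of 244 bases in *Gclm* transcripts is 100% identical to the pseudogene *Gm10123*, whose means were 604 and 507. The level of *Gclm*, and this ratio, may thus depend on how reads were shared out. Glutathione synthetase (*Gss*) had means of 0.131 and 0.104 and glutathione reductase (*Gsr*), which recycles oxidised glutathione, of 0.134 and 0.0825. *Slc7a11*, the cystine importer that feeds the pathway, was the one gene of the 5 with a lower mean in *Mfn1*-/- oocytes, at 0.0579 against 0.146. Its log2 fold change was -0.64, which became -1.20 when 0.01 was added in place of 0.1 and -0.12 when 1 was added. A stretch of 373 bases in its transcripts is 96.2% identical to *Tuba1b* (56.9 and 41.6), so its level may also depend on how reads were shared out. Summed with the 8 genes that match it in part, its log2 fold change was 0.42. Of the 5 genes 0 were past 2-fold at the pseudocount of 0.1.

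*Slc7a11* is also a target of ATF4, the transcription factor of the integrated stress response, and its promoter was searched with the others for the letters TGATGNAA on both strands, a core of ATF4 sites. It was the only one of the 39 genes with a match, or 2.56%, against 4.51% of 27025 genes, and it holds 2 matches, in capitals, facing each other.
*Slc7a11* (chr3:50443637-50443695, minus strand, -82 to -24 from the start): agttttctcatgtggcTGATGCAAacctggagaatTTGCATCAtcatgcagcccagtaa

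Of 28 other glutathione genes 24 have a row, with a median log2 fold change of 0.005. Of these, 3 or 12.5% were more than 2-fold higher and 0 lower, beside 4.87% and 2.75% of all genes. *Chac1* had means of 5.01 in *Mfn1*-/- oocytes against 1.25 in WT, a log2 fold change of 1.92, and *Chac2* of 1.84 and 0.776, a log2 fold change of 1.15. Both encode enzymes that break glutathione down in the cytosol. *Slc25a39*, the carrier that brings glutathione into mitochondria, had means of 10.5 and 5.04 and a log2 fold change of 1.04. After subtraction of the overall shift *Chac1* stood at 1.76, *Chac2* at 0.99 and *Slc25a39* at 0.89, so that only *Chac1* remained past 2-fold. *Slc3a2*, the partner chain of the SLC7A11 protein, had means of 16.6 and 10.9. Of the 10 genes that supply NADPH, the reductant behind both glutathione and thioredoxin, 0 were past 2-fold, with log2 fold changes from -0.26 (*Me1*) to 0.54 (*Pgd*).

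The thioredoxin genes split in direction. *Txnip*, which encodes an inhibitor that binds reduced thioredoxin, was the most abundant of the 5 and had a mean of 54.7 in *Mfn1*-/- oocytes against 80.8 in WT, a log2 fold change of -0.56 and of -0.72 after subtraction of the overall shift. Cytosolic thioredoxin (*Txn1*) had means of 5.56 and 3.99, a log2 fold change of 0.47, and mitochondrial thioredoxin (*Txn2*) of 14.5 and 15.3. The reductases, which restore thioredoxin with NADPH, had means of 0.78 and 0.706 for cytosolic *Txnrd1* and of 0.0457 and 0.0234 for mitochondrial *Txnrd2*. The group summed to 75.6 in *Mfn1*-/- oocytes against 101 in WT, and 0 of its 5 genes were past 2-fold. The lower sum rests on *Txnip*, which held most of it in both genotypes. *Txn2* also had the lower mean in *Mfn1*-/- oocytes, while *Txn1*, *Txnrd1* and *Txnrd2* had the higher one.

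The peroxiredoxins, thiol enzymes that reduce hydrogen peroxide, were the most abundant group in WT oocytes, while in *Mfn1*-/- oocytes the haem and iron genes summed higher (440 against 329). These sums leave out the coding copies. With their copies, *Prdx1* stood at 324, *Prdx2* at 308 and *Ftl1* at 439 in *Mfn1*-/- oocytes. Which group summed higher there thus depends on how reads were shared out. The peroxiredoxins were close to equal in the genotypes. *Prdx2* had means of 215 in *Mfn1*-/- oocytes against 226 in WT and *Prdx1*, also cytosolic, of 76.3 and 88.2. Mitochondrial *Prdx3* had 3.65 and 3.61, *Prdx5* 29.3 in both and *Prdx4*, of the endoplasmic reticulum, 0.185 and 0.177. *Prdx6*, the one that uses glutathione, was the exception in size, with 4.41 and 2.83 and a log2 fold change of 0.62. The 6 genes summed to 329 and 350, and their median log2 fold change was 0.008, below the overall shift for 5 of the 6. *Prdx1* held 23.6% of the sum with its 2 coding copies in *Mfn1*-/- oocytes and *Prdx2* 69.8% of the sum with its 1 copy, and the sums differed as little as the members, with log2 fold changes of -0.19 and -0.02.

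The glutathione peroxidases reduce peroxides at the expense of glutathione. *Gpx3*, a secreted member (chromosome 11, 54902453 to 54910377, plus strand), had a mean of 10.2 in *Mfn1*-/- oocytes against 3.54 in WT, 2.83-fold with the pseudocount and a log2 fold change of 1.50. *Gpx1*, the main cytosolic member (chromosome 9, 108338903 to 108340343, plus strand), had 89.5 and 46.6, a log2 fold change of 0.94, just short of 2-fold. For these genes 392 genes of the table, or 1.71%, had a log2 fold change above that of *Gpx3* and 5.55% one above that of *Gpx1*. *Gpx7* and *Gpx8*, both of the endoplasmic reticulum, were near the bottom of the scale, with 0.0661 and 0.119, and 0.037 and 0.0316. Of the 5 genes 1 was past 2-fold, and they summed to 102 and 52.6, a ratio of 1.94. Most of both sums was *Gpx1*. The sums count *Gpx4* at 2.52 and 2.32 and leave out its near-identical copy *Gpx4-ps2* (146 and 149), so the ratio depends on how reads were shared out.

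*Gpx4*, which reduces lipid peroxides in membranes and guards against ferroptosis, had means of only 2.52 in *Mfn1*-/- oocytes against 2.32 in WT. Its processed pseudogene *Gpx4-ps2* had 146 and 149. The stretch of 75 bases in which the copy differs most from the coding sequence of *Gpx4* (bases 298 to 372) is shown with the differing base in capitals.
*Gpx4* (chromosome 10, 80047166 to 80056439, plus strand): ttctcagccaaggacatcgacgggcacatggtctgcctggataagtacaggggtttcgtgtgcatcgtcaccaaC
*Gpx4-ps2* (chromosome 10, 45875291 to 45876086, plus strand): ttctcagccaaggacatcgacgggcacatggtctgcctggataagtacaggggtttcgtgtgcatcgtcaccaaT

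Over the 509 bases that align, of 759 in the coding sequence, the genes differ at 2 positions. *Gpx4* held 1.70% of the sum of both in *Mfn1*-/- oocytes against 1.53% in WT, so its level, and its place in the order of the antioxidant genes, depend on which gene the reads were given to. The sum was 149 in *Mfn1*-/- oocytes against 151 in WT, a log2 fold change of -0.03.

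Superoxide dismutases turn superoxide into hydrogen peroxide, which catalase then splits. Cytosolic *Sod1* had means of 13.9 in *Mfn1*-/- oocytes against 11.8 in WT and mitochondrial *Sod2* of 6.3 and 5.86, with log2 fold changes of 0.23 and 0.10. Secreted *Sod3* was listed at the lowest value of 0.01 in *Mfn1*-/- oocytes and at 0.0163 in WT oocytes, so no fold is given. None of the 4 genes was past 2-fold. *Sod1* held 25.3% of the sum with its pseudogene *Gm8566* in *Mfn1*-/- oocytes, and the sum of both had a log2 fold change of 0.20.

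Glutaredoxins use glutathione to reduce protein disulfides, and *Glrx3* and *Glrx5* serve in iron and iron-sulfur cluster handling. *Glrx* had means of 113 in *Mfn1*-/- oocytes against 130 in WT, mitochondrial *Glrx5* of 50.2 and 43.4, *Glrx3* of 1.06 and 0.969 and mitochondrial *Glrx2* of 0.127 and 0.0994. The 4 genes had log2 fold changes between -0.20 and 0.21 and summed to 164 and 174. *Glrx3* held 2.17% of the sum with its pseudogene *Gm12669* (47.8 and 42.6), so its level, like that of *Gpx4*, depends on how reads were shared out.

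The glutathione transferases, which join glutathione to electrophiles, were all higher in *Mfn1*-/- oocytes by their means, and 1 of the 6 was past 2-fold. Of the 6, 5 lay above the overall shift and 1 below. *Gstp1* (chromosome 19, 4035407 to 4037985, minus strand) had a mean of 74 in *Mfn1*-/- oocytes against 24.7 in WT, 2.99-fold with the pseudocount and a log2 fold change of 1.58, and 336 genes had a larger one. *Gsta4*, which clears lipid peroxidation aldehydes, had 11 and 6.64, a log2 fold change of 0.72. *Gstm1* had 1.24 and 1.09, *Gsto1* 0.434 and 0.319, and the membrane-bound *Mgst1* and *Mgst3* 0.122 and 0.0788, and 9.06 and 8.64.

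*Gstp1* shares its coding sequence with a neighbouring gene, *Gstp2*, and with the pseudogene *Gstp-ps*. Bases 3 to 77 of the coding sequence of *Gstp1* hold the most differences and are shown with the positions at which any of the 3 differ in capitals.
*Gstp1* (chromosome 19, minus strand): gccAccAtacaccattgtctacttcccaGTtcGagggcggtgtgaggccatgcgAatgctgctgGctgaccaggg
*Gstp2* (chromosome 19, 4040285 to 4046023, minus strand): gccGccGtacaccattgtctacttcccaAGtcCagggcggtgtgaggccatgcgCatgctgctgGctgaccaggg
*Gstp-ps* (chromosome 1, 192073820 to 192074450, minus strand): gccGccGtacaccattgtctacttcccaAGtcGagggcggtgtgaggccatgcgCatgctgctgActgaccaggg

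Each copy differs from *Gstp1* at 6 positions of this stretch. Over the coding sequence of 630 bases *Gstp2* differs at 12 positions, and *Gstp-ps* at 15 of the 628 bases that align. *Gstp-ps* had a mean of 189 in *Mfn1*-/- oocytes against 55.1 in WT and *Gstp2* of 19.6 and 5.1, log2 fold changes of 1.78 and 1.92. The 3 genes summed to 283 and 84.9, a log2 fold change of 1.73, of which *Gstp1* held 26.2% and 29.1%. The 3 genes lay in the same direction, but the reads given to each cannot be separated here, so they are not independent measurements.

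**Figure D4:**
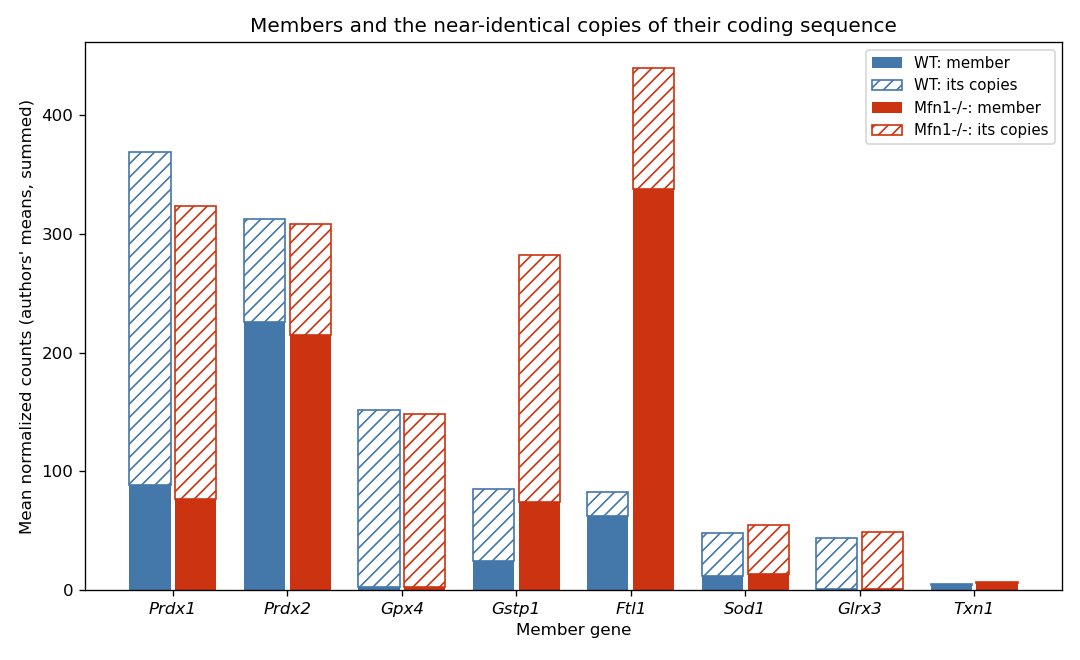
Mean normalized counts (vertical axis, linear, authors' means) of the 8 antioxidant genes with near-identical coding copies (solid) and of those copies summed (hatched), in WT and *Mfn1*-/- oocytes. The *Ftl1* and *Gstp1* families are taller in *Mfn1*-/- oocytes with and without their copies (439 against 82.7, and 283 against 84.9), and *Gpx4* and *Glrx3* are almost wholly hatched.

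By place in the cell, each gene was assigned to a single place, and *Gpx1*, *Gpx4*, *Gsr* and *Sod1* were not counted as mitochondrial. The 7 members counted as mitochondrial (*Txn2*, *Txnrd2*, *Prdx3*, *Prdx5*, *Sod2*, *Glrx2* and *Glrx5*) had small log2 fold changes at the pseudocount of 0.1. These ran from -0.08 for *Txn2* to 0.24 for *Txnrd2* with a median of 0.10, 0 were past 2-fold, and they summed to 104 in *Mfn1*-/- oocytes against 97.6 in WT, a ratio of 1.07. *Txnrd2* is low in both genotypes, and its log2 fold change became 0.74 when 0.01 was added in place of 0.1. Of the 5 members of the endoplasmic reticulum or outside the cell, 1 (*Gpx3*) was past 2-fold and the median was 0.04. The other 32 members had a median of 0.21, with 3 past 2-fold. Of all genes 4.87% were more than 2-fold higher and 2.75% lower, and groups of 5 or 7 genes are too small to be set apart from these shares.

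A further 22 genes of thiol repair and redox control held 2 that were more than 2-fold higher and 0 lower, with a median log2 fold change of 0.17. *Tmx1*, a thioredoxin-like protein of the endoplasmic reticulum membrane, had means of 0.963 in *Mfn1*-/- oocytes against 0.319 in WT, a log2 fold change of 1.34. *Sesn2*, a stress-induced sestrin, had 0.268 and 0.0813, just past 2-fold with the pseudocount. *Park7*, which encodes DJ-1, had 10.1 and 7.73 and the carbonyl reductase *Cbr1* 19.8 and 12.7. Over the 83 genes with a row in these further redox lists, 6 were more than 2-fold higher, or 7.23%, and 0 more than 2-fold lower, beside 4.87% and 2.75% of all genes, with a median log2 fold change of 0.12. After subtraction of the overall shift 3 of the 6 (*Sqstm1*, *Chac1* and *Tmx1*) were still past 2-fold, where 3.58% of all genes were more than 2-fold higher.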

How the data were processed

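RNA-seq libraries of 5 pooled oocytes (4 WT, 3 *Mfn1*-/-) were made with Smart-Seq2 and Nextera XT and sequenced as 75 bp paired-end reads. The authors removed adapters (Cutadapt) and low-quality reads (FASTX-Toolkit), aligned the rest to GRCm38/mm10 (STAR, default settings), counted reads per gene and tested genes with DESeq2. The annotation version, the strand setting, the treatment of multi-mapping reads and the normalization are not given in the sources used here. The authors' deposited signal values are, for each gene, a mean of normalized counts in each genotype and a total over libraries. The table's other columns (a p-value, an FDR, a ratio and a fold change of the authors' own comparison) were not used. There were 0 columns of single libraries left unused, so depth per library is unknown and no interval or test could be computed.

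Log2 fold changes used a pseudocount of 0.1, and a gene was counted as higher or lower past 2-fold. The overall shift is the median over genes with a mean of at least 1. All listed genes are named, and genes of the further lists are named when past 2-fold with a higher mean of at least 0.5; others, including *Sesn2*, were named after their values were seen. The genes and lists were chosen with earlier results of these data known. Positions are from GENCODE M21 and promoters from RefSeq. Coding copies are genes of the table that match at least 50% of a coding sequence at 95% identity or more (blastn 2.17.0). The alternatives were a pseudocount of 0.01 or 1, a minimum mean of 0.1 or 1, subtraction of the overall shift, a 1.5-fold threshold, leaving out genes with 75 bases at 95% identity to another gene, and, chosen after seeing the data, sums with coding copies. The code was run on simulated means without noise, which checks the counting of folds and not the results. Python 3.11.15, numpy 2.4.6, pandas 2.3.3 and matplotlib 3.10.9 were used.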

Additional observations from a re-analysis of the deposited data

How the results depend on the processing

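The count of 4 genes more than 2-fold higher was 5 with a pseudocount of 0.01 (10.5% of all genes) and 3 with a pseudocount of 1 (0.914%). With minimum means of 0.1 and 1 it was 4 of 37 (7.25% of all genes at that level) and 3 of 25 (5.44%). It stayed at 4 after subtraction of the overall shift (3.58%) or when genes were summed with their coding copies (4.87%). It was 2, *Hmox1* and *Gpx3*, among the 27 genes with no near-identical stretch elsewhere, since *Ftl1* and *Gstp1* are left out there, and 8 with a 1.5-fold threshold (12.4%). The count of 0 genes more than 2-fold lower was 2 with a pseudocount of 0.01 (*Nfe2l2* and *Slc7a11*; 6.63%), 1 after subtraction of the overall shift (*Nfe2l2*) and 2 with a 1.5-fold threshold (6.88%). The median log2 fold change of 0.18 was 0.063 with a pseudocount of 1 and 0.016 after subtraction of the overall shift, where the median of all genes was -0.12. Single genes changed sides of 2-fold in 3 of the settings: *Nfe2l2*, *Keap1* and *Slc7a11* passed it with a pseudocount of 0.01, *Hmox1* no longer passed it with a pseudocount of 1, and *Nfe2l2* passed it after subtraction of the overall shift.

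No paired analysis was possible because the table holds genotype means that carry no replicate numbers. Leaving out each replicate was not run for the same reason, so a difference that rests on 1 library cannot be recognised. Values near 0.1 rest on few reads, and their folds depend on the pseudocount.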
